A study of Homo sapiens with 10 samples.

Results

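The genes described here are the SR proteins and the hnRNPs, the 2 large families of RNA-binding proteins that steer splice-site choice, together with the transcripts each gene makes. They were taken from the deposited transcript annotation as every gene whose symbol was SRSF followed by a number, TRA2A or TRA2B, or HNRNP followed by letters or digits, with pseudogenes left out. This gave 39 genes (14 SR and 25 hnRNP) with 151 transcripts, out of 57110 gene identifiers and 99493 transcripts. The data are nanopore long-read RNA sequencing of ovarian cancer cell lines, for which the labels give no treatment, made to benchmark a program that quantifies transcripts from such reads. The lines COV362, COV504, SK-OV-3, OVMANA, OVKATE and OVTOKO each gave 1 PromethION library, and IGROV-1 gave 2 PromethION and 2 MinION libraries, which are 2 nanopore instruments of high and low output. All 10 libraries were prepared from column-purified RNA with a ligation kit and an end repair of 30 min. No source used here says whether the IGROV-1 libraries came from separate cultures, so p-values measure only the spread between these libraries, which may be technical.

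SR proteins carry RNA recognition motifs and a tail rich in arginine and serine, and they mostly bind exonic enhancers and help U1 and U2 components settle on nearby splice sites. The hnRNPs coat nascent transcripts and often act the other way, silencing exons, although both families can do either depending on where they bind. Many of these genes regulate their own messenger RNA through alternative exons, and classical protein pairs such as hnRNP A2 and B1, or hnRNP C1 and C2, come from 1 gene by alternative splicing.

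The libraries held between 1729782 and 3666224 estimated counts. Levels are given below as CPM, the count scaled to a common library total, which is not divided by transcript length, so levels are compared between libraries and not between genes. A count of 3 corresponded to between 0.818 and 1.73 CPM. Both mitochondrial ribosomal RNAs took 9.13% and 10.9% of the counts in the IGROV-1 PromethION libraries and between 1.01% and 3.31% in the other 8. Without those counts, 10 to 17 members per line were called in the comparisons below, against 13 to 18 with them. Over all genes tested, 4321 to 6313 per line were called without them and 4443 to 6405 with them. Among the markers of the labelled cell type, EPCAM reached at most 1.54 CPM and CDH1 was at 0 in the 4 IGROV-1 libraries, and KRT19 was at 0.58 CPM in OVTOKO. KRT18 lay between 243.6 and 4627 CPM in all 10 libraries. In IGROV-1 KRT19 lay between 140.1 and 177.0 CPM, KRT8 between 5.15 and 11.4 CPM, and KRT7 was at 0. In OVTOKO KRT8 was at 133.5 CPM and KRT7 at 14.45 CPM. Outside IGROV-1, EPCAM ranged from 8.67 CPM in OVTOKO to 1813.5 CPM in OVMANA, and CDH1 from 1.57 CPM in COV362 to 214.3 CPM in OVMANA. The lineage gene PAX8 lay between 84.1 and 339.8 CPM in all 10 libraries. The other lineage genes were not present throughout. WT1 was at 76.2 CPM in OVKATE, 0.39 CPM in COV362 and 0 elsewhere. MUC16 and MSLN reached at most 0.86 and 0.27 CPM in IGROV-1, 0 in OVTOKO, and 0 and 2.03 CPM in SK-OV-3. In the remaining lines MUC16 lay between 11.6 and 57.4 CPM and MSLN between 16.9 and 309.6 CPM. Leukocyte genes PTPRC and CD3E and erythroid genes HBB and HBA1 stayed under 2 CPM throughout. Summed levels ran from 350.7 to 1065 CPM for 4 leukocyte genes, nearly all of it CD68, whose identifier is joined with another gene, from 0.53 to 25.8 CPM for 3 endothelial genes and from 0.58 to 434.1 CPM for 4 fibroblast genes.

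The identifiers of the 39 genes made up a larger part of the IGROV-1 libraries than of any other line. With the neighbouring genes ECH1 and BSCL2, which share 2 of the identifiers, they took 1.08% ± 0.003 (SD, n = 2) of counts in IGROV-1 on PromethION and 1.11% ± 0.041 (SD, n = 2) on MinION, against 0.826% in OVMANA, 0.911% in OVKATE, 0.714% in OVTOKO, 0.865% in SK-OV-3, 0.883% in COV362 and 0.851% in COV504. The members' own transcripts took 1.06% ± 0.003 (SD, n = 2) in IGROV-1 on PromethION, 1.09% ± 0.04 (SD, n = 2) on MinION and between 0.672% and 0.877% in the other 6 lines. The SR genes alone took 0.226% ± 0.012 (SD, n = 2) in IGROV-1 on PromethION, 0.247% in each MinION library and between 0.156% and 0.21% in the other 6 lines. The hnRNP identifiers took 0.852% ± 0.015 (SD, n = 2), 0.861% ± 0.041 (SD, n = 2) and between 0.558% and 0.702%. OVTOKO was lowest for both families. These shares are a description of 1 library per line and were not tested.

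**Figure D1:**
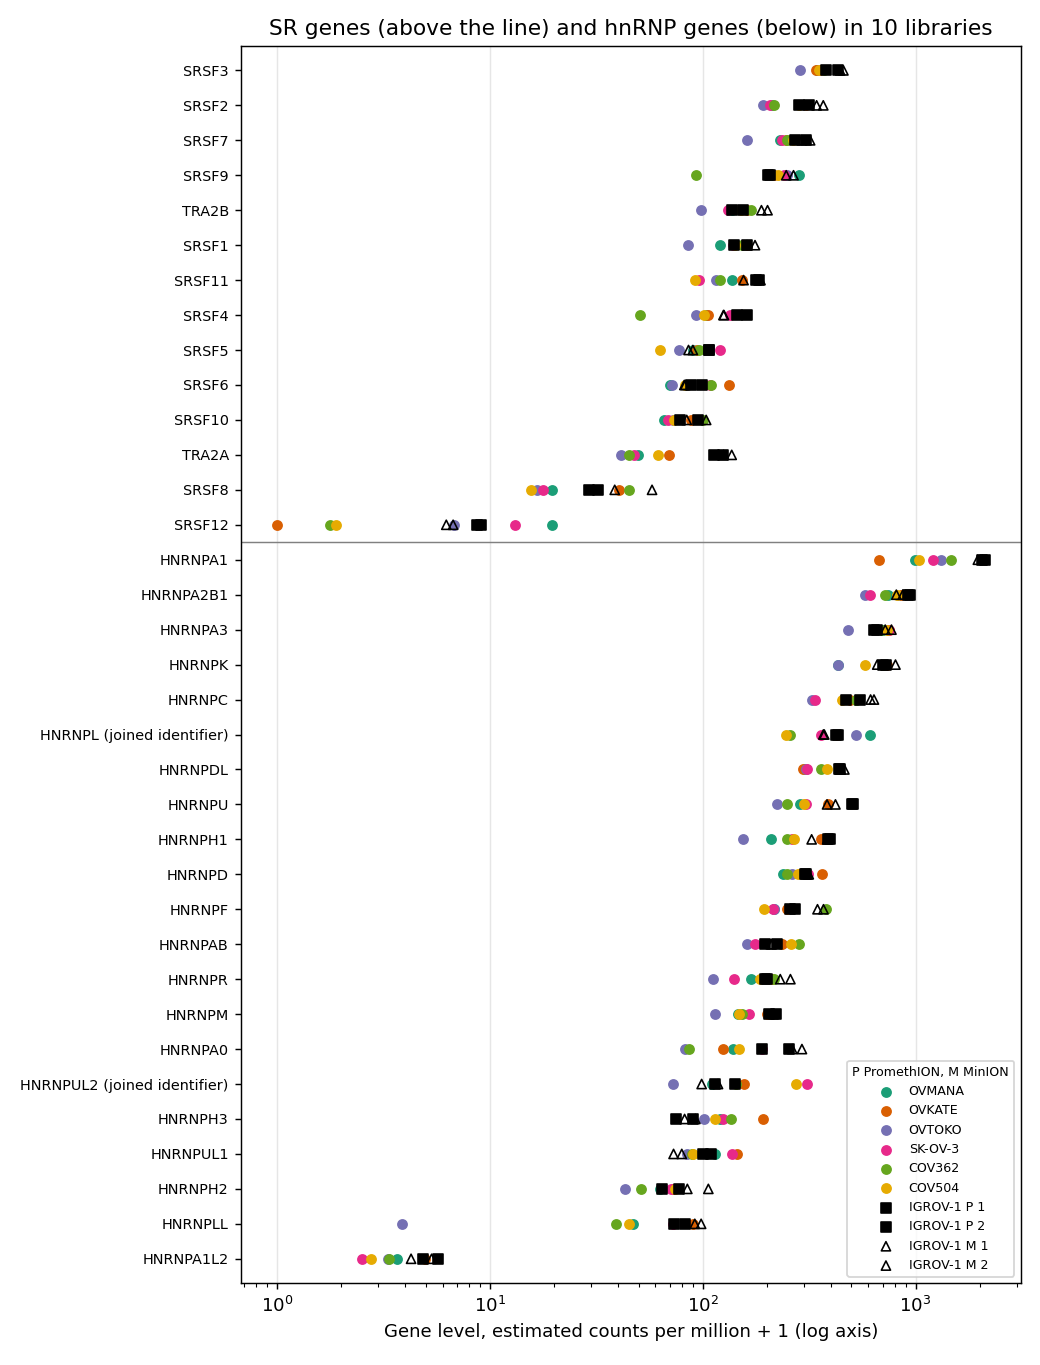
Level of each of the 35 SR and hnRNP genes detected in any library, as CPM plus 1 on a log axis; each symbol is 1 library, squares are IGROV-1 PromethION and open triangles IGROV-1 MinION. TRA2A in the 6 other lines lies below all 4 IGROV-1 libraries, and HNRNPLL in OVTOKO and SRSF12 in OVKATE, COV362 and COV504 stand far to the left.

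The level of every gene in the 6 single-library lines was set against IGROV-1 on PromethION in edgeR's quasi-likelihood test with Benjamini-Hochberg adjustment over 13030 genes, of which 35 were members. HNRNPCL1, HNRNPCL2, HNRNPCL3 and HNRNPCL4, copies of HNRNPC on chromosome 1, had 0 counts in all 10 libraries and were not tested. All 6 comparisons use the same 2 IGROV-1 libraries, so they are given side by side and are not independent of one another. In OVMANA, 4 members were higher and 9 lower, where 18.9% and 16.5% of all genes tested were called in those directions. In OVKATE 1 was higher and 13 lower (26.8% and 22.4% of all genes), and in OVTOKO 0 were higher and 18 lower (18.2% and 15.9%). In SK-OV-3 1 was higher and 15 lower (22% and 19.8%), in COV362 3 were higher and 12 lower (23.7% and 18.8%), and in COV504 1 was higher and 14 lower (24% and 19.6%). Counting both directions, 13, 14, 18, 16, 15 and 15 of the 35 members were called in these lines, where 35.4%, 49.2%, 34.1%, 41.8%, 42.5% and 43.5% of all genes were. In OVTOKO, 1 member above 0, HNRNPL by its joined identifier, had an unadjusted p under 0.05 in edgeR (adjusted p = 0.076), and edgeR with DESeq2's size factors called 1 higher. The members' median log2 fold change was -0.26 in OVMANA, -0.30 in OVKATE, -0.58 in OVTOKO, -0.47 in SK-OV-3, -0.24 in COV362 and -0.30 in COV504, beside medians between -0.01 and 0.04 over all genes tested.

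Each of the 6 lines has 1 library, whose spread is assumed to equal that of the IGROV-1 libraries (2 residual degrees of freedom). Deviations of same-numbered IGROV-1 libraries correlated across 7894 genes (Pearson 0.49), so these 2 degrees of freedom may not be independent. The p-values of all 6 comparisons rest on them. The MinION libraries are not part of the compared groups, and enter the estimate of spread, the filter on low counts and the scaling. Without IGROV-1 MinION replicate 1, 7 members were called in OVMANA, 9 in OVKATE and 10 in OVTOKO, and without IGROV-1 MinION replicate 2 there were 8, 9 and 10. Leaving out IGROV-1 PromethION replicate 1 gave 8 in OVMANA and 8 in OVKATE, with 10 in COV362 (against 15), and leaving out replicate 2 gave 8 in OVMANA and 11 in OVTOKO. For fits without 1 library, here and for usage below, the share of all genes called is not given. Nothing particular to the members is read from those counts. DESeq2 called between 1 and 7 members per line, and between 1314 and 2116 of all genes.

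Among the SR members, TRA2A was lower than IGROV-1 in all 6 lines. TRA2A, at 7:23504780-23532041 on the minus strand (all positions here are GRCh38, GENCODE 29), encodes transformer-2 alpha, a regulator that binds purine-rich exonic enhancers. It stood at 123.0 and 112.5 CPM in IGROV-1 on PromethION and at 124.4 and 135.9 CPM on MinION. The other lines had 48.6 CPM in OVMANA, 68.2 CPM in OVKATE, 40.5 CPM in OVTOKO, 46.6 CPM in SK-OV-3, 43.9 CPM in COV362 and 60.95 CPM in COV504. No line overlapped any IGROV-1 library. Its log2 fold change ran from -1.57 ± 0.19 (SE, adjusted p = 0.00035) in SK-OV-3 to -1.03 ± 0.18 (SE, adjusted p = 0.0021) in COV504, and the call held in all 6 lines when any IGROV-1 library was left out. Under DESeq2 it was lost in OVMANA, OVKATE and COV504 (adjusted p = 0.099, 0.12 and 0.18). TRA2B, its paralog with a similar binding preference, was called in none of the 6 lines and lay between 97.7 and 200.7 CPM over the 10 libraries.

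SRSF12, a minor SR family member at 6:89095959-89118081 that can oppose other SR proteins, varied most relative to its level. It was at 8.12 and 7.73 CPM in IGROV-1 on PromethION, at 5.73 and 5.25 CPM on MinION, and at 18.7 CPM in OVMANA, 12.2 CPM in SK-OV-3 and 5.78 CPM in OVTOKO. OVKATE had 0 counts, at least 5.3-fold lower than IGROV-1 when 3 counts are taken as the floor for that library. COV362 and COV504 had 2 counts each. The IGROV-1 level was 10.1 times that of COV362 (exact 95% counting interval 2.6 to 86.6) and 8.9 times that of COV504 (2.3 to 76.3). OVMANA was higher than IGROV-1 by a log2 fold change of 1.29 ± 0.35 (SE, adjusted p = 0.021). DESeq2 kept only the OVKATE call (adjusted p = 0.041).

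COV362 had the lowest SRSF4 and the lowest SRSF9 of the 10 libraries. SRSF4 encodes SRp75, a long SR protein, and stood at 49.8 CPM in COV362 against 144.0 and 160.2 CPM in IGROV-1 on PromethION and between 92.5 and 133.2 CPM in the other 5 lines. The log2 fold change was -1.57 ± 0.18 (SE, adjusted p = 0.00035). SRSF9 encodes SRp30c, and stood at 92.1 CPM in COV362 against 206.7 and 201.9 CPM in IGROV-1 and between 216.1 and 282.7 CPM in the other 5 lines, a log2 fold change of -1.11 ± 0.18 (SE, adjusted p = 0.0015). SRSF9 was higher than IGROV-1 in OVMANA (log2 0.53 ± 0.16 SE, adjusted p = 0.032), a call kept with 1 of the 4 IGROV-1 libraries left out in turn. SRSF4 was lower in OVKATE, OVTOKO and COV504 as well. Both COV362 calls held under all 11 alternatives.

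SRSF11, an SR-related protein that contacts the 3' splice site machinery, was lower in 5 of 6 lines. Its levels were 183.7 and 176.5 CPM in IGROV-1 on PromethION, 154.7 and 186.0 CPM on MinION, 95.2 CPM in SK-OV-3, 91.2 CPM in COV504, 114.5 CPM in OVTOKO, 119.1 CPM in COV362, 151.4 CPM in OVKATE and 136.8 CPM in OVMANA. The largest differences were in SK-OV-3 (log2 -1.15 ± 0.17 SE, adjusted p = 0.0011) and COV504 (log2 -1.06 ± 0.17 SE, adjusted p = 0.0016). The SRSF11 call in OVTOKO (adjusted p = 0.03) was lost whichever IGROV-1 library was left out, and those in COV362 and OVKATE held in 3 of 4 such fits. SRSF8, an intronless copy of SRSF2, was lower in COV504 (14.7 CPM, log2 -1.10 ± 0.32 SE, adjusted p = 0.025) and SK-OV-3 (16.7 CPM, log2 -1.06 ± 0.32 SE, adjusted p = 0.03) than in IGROV-1 on PromethION (28.2 and 31.4 CPM). Both SRSF8 calls were lost under DESeq2 and without a filter on low counts, and reads shared with SRSF2 could be split differently by another counter.

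The remaining SR members showed smaller differences. SRSF1, the founding member of the family, was called in 1 line, OVTOKO, at 84.4 CPM against 159.8 and 139.6 CPM (log2 -0.75 ± 0.18 SE, adjusted p = 0.012). SRSF2, which binds exonic enhancers, was lower in OVTOKO and SK-OV-3 and ranged from 190.8 to 367.7 CPM. SRSF3, the smallest SR protein, was lower in OVKATE and ranged from 285.6 to 457.4 CPM. SRSF5 was lower in OVKATE and COV504 and ranged from 61.8 to 119.5 CPM, and SRSF7, which like SRSF3 also adapts mRNA for export, was lower in OVKATE, OVTOKO and SK-OV-3 and ranged from 161.3 to 318.9 CPM. SRSF6 (from 69.5 to 131.6 CPM) and SRSF10 (from 65.2 to 102.9 CPM), a splicing repressor when dephosphorylated, were called in none. Of the calls in this paragraph, those of SRSF2 in SK-OV-3, SRSF5 in COV504 and SRSF7 in OVTOKO held with each IGROV-1 library left out.

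Among the hnRNP members, HNRNPA1, HNRNPH1 and HNRNPU were lower than IGROV-1 in all 6 lines. HNRNPA1, at 12:54280193-54287088, encodes an abundant exon silencer. It was at 2061 and 2121 CPM in IGROV-1 on PromethION and at 1961 and 2063 CPM on MinION. The other lines had 991 CPM in OVMANA, 675 CPM in OVKATE, 1321 CPM in OVTOKO, 1210.4 CPM in SK-OV-3, 1466 CPM in COV362 and 1042 CPM in COV504, all below the 4 IGROV-1 libraries. Its log2 fold change was -1.93 ± 0.17 (SE, adjusted p = 4.5e-05) in OVKATE, about -1.02 in OVMANA and SK-OV-3, and -1.08 ± 0.16 (SE, adjusted p = 0.0009) in COV504. The calls in COV362 (adjusted p = 0.037) and OVTOKO (adjusted p = 0.019) were lost whichever IGROV-1 library was left out. HNRNPA1 has many processed copies in the genome, and reads from it can be shared with them. One expressed copy, HNRNPA1L2, lay between 1.52 and 4.70 CPM and was called in no line.

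HNRNPU, at 1:244840638-244864560, encodes the scaffold attachment factor that binds RNA and chromatin. It was at 506.2 and 503.0 CPM in IGROV-1 on PromethION and at 383.0 and 419.6 CPM on MinION, against 285.3 CPM in OVMANA, 385.3 CPM in OVKATE, 223.2 CPM in OVTOKO, 304.9 CPM in SK-OV-3, 248.8 CPM in COV362 and 298.5 CPM in COV504. Of the 6 lines, only OVKATE overlapped a MinION library. The log2 fold change ran from -1.10 ± 0.16 (SE, adjusted p = 0.0011) in OVTOKO to -0.69 ± 0.15 (SE, adjusted p = 0.0055) in OVKATE, and all 6 calls held with each IGROV-1 library left out, while DESeq2 lost those in OVMANA and OVKATE (adjusted p = 0.085 and 0.11). HNRNPH1 encodes a protein that binds runs of G. It was at 395.1 and 387.9 CPM in IGROV-1 on PromethION and at 324.0 and 383.4 CPM on MinION, against 207.3 CPM in OVMANA, 357.1 CPM in OVKATE, 153.2 CPM in OVTOKO, 262.9 CPM in SK-OV-3, 246.8 CPM in COV362 and 267.4 CPM in COV504. OVKATE lay within the span of the MinION libraries and the other 5 lines below it. The level was lowest in OVTOKO (log2 -1.28 ± 0.17 SE, adjusted p = 0.00072). The HNRNPH1 call in OVKATE (log2 -0.43 ± 0.15 SE, adjusted p = 0.045) was lost whichever IGROV-1 library was left out and without mitochondrial ribosomal RNA counts. DESeq2 kept the HNRNPH1 call in OVTOKO and in no other line.

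HNRNPLL in OVTOKO had the largest fitted difference among members with counts in every library. HNRNPLL, at 2:38561978-38603586, encodes a relative of hnRNP L known for switching CD45 exons in lymphocytes. OVTOKO had 5 counts, or 2.89 CPM, while the other lines had 46.0 CPM in OVMANA, 89.0 CPM in OVKATE, 71.9 CPM in SK-OV-3, 38 CPM in COV362 and 44.0 CPM in COV504. IGROV-1 had 82.0 and 72.6 CPM on PromethION and 97.4 and 90.8 CPM on MinION. The log2 fold change for OVTOKO was -4.64 ± 0.36 (SE, adjusted p = 4.7e-05), and it held under all 11 alternatives (adjusted p from 1.1e-22 to 0.014). HNRNPLL was also lower in OVMANA, COV362 and COV504, with log2 fold changes of -0.69, -0.98 and -0.89; the OVMANA call held with 1 of the 4 IGROV-1 libraries left out in turn.

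HNRNPA0, an intronless gene of the A/B group, was lower in 5 lines. It was at 189.2 and 252.1 CPM in IGROV-1 on PromethION, 262.7 and 291.7 CPM on MinION, 81.5 CPM in OVTOKO, 85.4 CPM in COV362, 123.2 CPM in OVKATE, 137.9 CPM in OVMANA, 147.3 CPM in COV504 and 189.9 CPM in SK-OV-3. The difference was -1.36 ± 0.22 (SE, adjusted p = 0.0021) in OVTOKO and -1.14 ± 0.21 (SE, adjusted p = 0.0024) in OVKATE on the log2 scale. SK-OV-3 lay within the span of the IGROV-1 libraries. The HNRNPA0 calls in OVMANA and COV504 each held with 1 of the 4 IGROV-1 libraries left out in turn. HNRNPH3 went the other way. It is the smallest member of the F/H group, and stood at 191.4 CPM in OVKATE, 134.8 CPM in COV362, 120.2 CPM in OVMANA, 123.1 CPM in SK-OV-3, 113.0 CPM in COV504 and 100.01 CPM in OVTOKO, against 74.3 and 88.9 CPM in IGROV-1 on PromethION and 81.3 and 91.5 CPM on MinION. All 6 lines lay above the 4 IGROV-1 libraries, and the difference passed in OVKATE (log2 0.93 ± 0.17 SE, adjusted p = 0.0024), COV362 (log2 0.77 ± 0.17 SE, adjusted p = 0.008) and OVMANA (log2 0.62 ± 0.18 SE, adjusted p = 0.027). The OVMANA call held with 1 of the 4 IGROV-1 libraries left out in turn.

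The other hnRNP members are given by their range over the 10 libraries and their calls. HNRNPA2B1, which reads short motifs in exported RNAs, ranged from 578.7 to 936.8 CPM and was lower in OVKATE, OVTOKO and SK-OV-3. HNRNPC, which binds uridine tracts in long transcripts, ranged from 324.3 to 636.9 CPM and was lower in OVTOKO and SK-OV-3. HNRNPDL, a regulator close to HNRNPD, ranged from 296.3 to 462.2 CPM and was lower in OVMANA, OVKATE, OVTOKO and SK-OV-3. HNRNPK, the poly(C) binder, ranged from 431.3 to 803.9 CPM and was lower in OVMANA and OVTOKO, and HNRNPR, a relative of SYNCRIP, from 111.0 to 257.4 CPM and lower in OVTOKO and SK-OV-3. HNRNPM, which binds GU-rich sequence, ranged from 112.7 to 221.2 CPM and was lower in 5 lines, OVKATE being the exception. HNRNPF, which like HNRNPH1 binds runs of G, ranged from 192.2 to 376.9 CPM, was lower in SK-OV-3 and COV504 and higher in COV362 (log2 0.55 ± 0.14 SE, adjusted p = 0.016). HNRNPAB ranged from 161.3 to 283.6 CPM and was higher in COV362 (adjusted p = 0.036), a call kept with 1 of the 4 IGROV-1 libraries left out in turn. HNRNPA3 (from 478.1 to 769.6 CPM), HNRNPD, which binds AU-rich elements (from 236.7 to 362.5 CPM), HNRNPH2 (from 42.2 to 105.4 CPM) and HNRNPUL1 (from 72.0 to 144.4 CPM) were called in no line. The calls in this paragraph that held with each IGROV-1 library left out were those of HNRNPA2B1, HNRNPC, HNRNPDL and HNRNPR in SK-OV-3, HNRNPDL in OVKATE, HNRNPK in OVMANA, and HNRNPM and HNRNPR in OVTOKO.

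**Figure D2:**
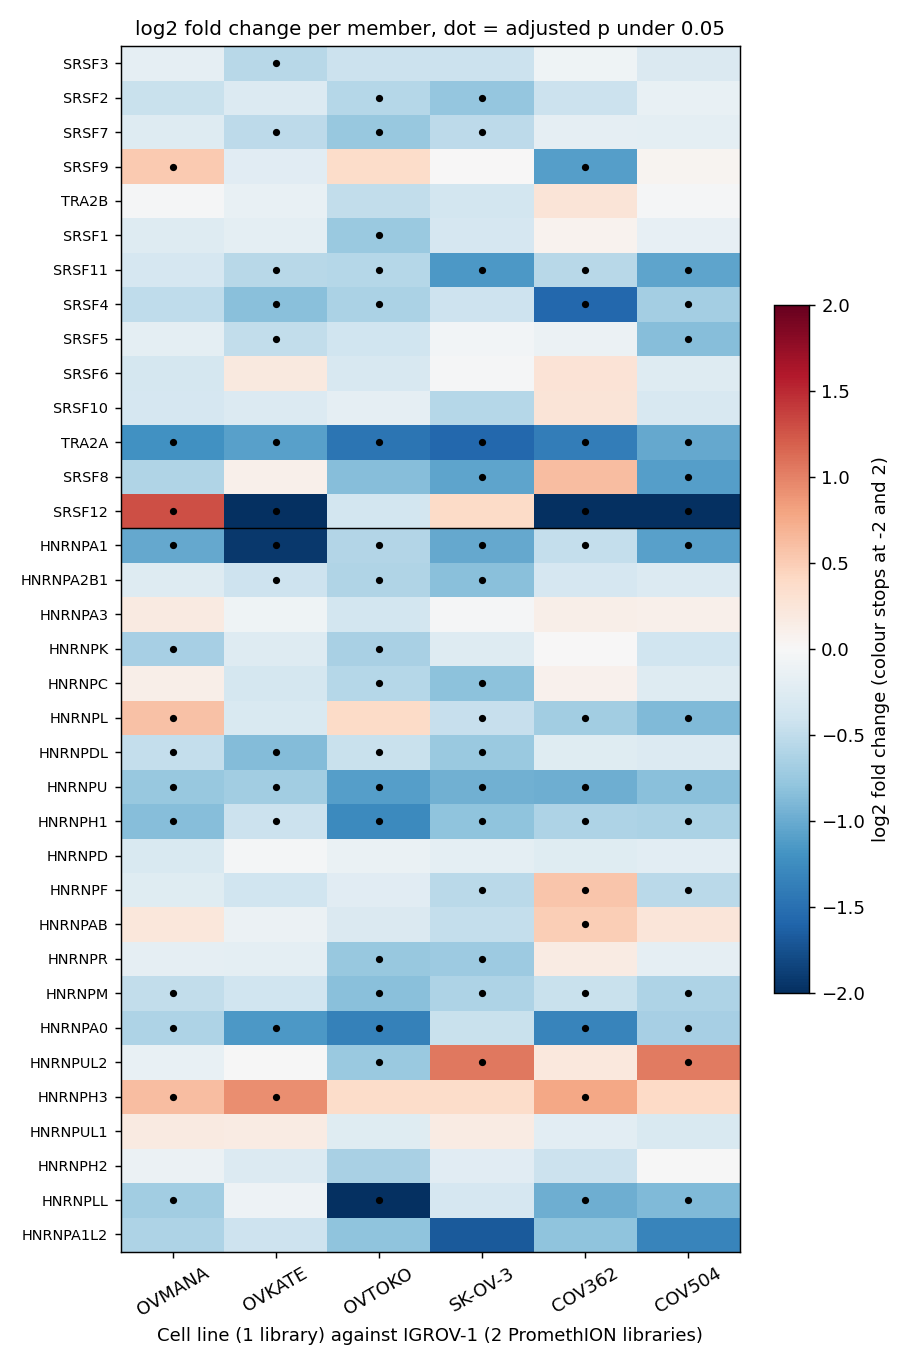
Fitted log2 fold change of each tested member in 6 lines against IGROV-1 on PromethION; blue is lower and red higher, the colour stops at -2 and 2, and a dot marks an adjusted p under the threshold. TRA2A, HNRNPA1, HNRNPU and HNRNPH1 are dotted and blue in all 6 columns, while HNRNPH3 is red in all 6 and dotted in 3.

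HNRNPL and HNRNPUL2 share their deposited identifier with a neighbouring gene, and for HNRNPL this turned the direction in OVMANA and OVTOKO. HNRNPL, at 19:38836388-38852347, binds CA repeats, and its identifier also holds transcripts of ECH1, a peroxisomal enzyme. By the joined identifier HNRNPL was higher in OVMANA (log2 0.59 ± 0.14 SE, adjusted p = 0.014), and its log2 fold change in OVTOKO was 0.38 ± 0.15 (SE, adjusted p = 0.076). Counting HNRNPL transcripts alone, a setting chosen after seeing the data, the level was 153.9 CPM in OVMANA, 164.2 CPM in OVKATE, 126.0 CPM in OVTOKO, 187.4 CPM in SK-OV-3, 129.7 CPM in COV362 and 114.3 CPM in COV504. IGROV-1 had 288.3 and 280.9 CPM on PromethION and 216.6 and 207.6 CPM on MinION, above every other line. On its own transcripts HNRNPL was lower in all 6 lines, from -1.39 ± 0.17 (SE, adjusted p = 0.00034) in COV504 to -0.82 ± 0.16 (SE, adjusted p = 0.0053) in OVMANA on the log2 scale, with -1.10 ± 0.17 (SE, adjusted p = 0.0016) in OVTOKO. The share of the joined identifier assigned to ECH1-201 ran from 32.8% and 33.3% in IGROV-1 on PromethION and 41.1% and 44.1% on MinION to 48.0% in SK-OV-3, 49.4% in COV362, 53.2% in COV504, 61.4% in OVKATE, 74.9% in OVMANA and 76.0% in OVTOKO. Usage under this identifier, in the test described further on, was called in OVMANA (adjusted p = 0.0043), OVTOKO (0.0045) and OVKATE (0.027).

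HNRNPUL2, a nuclear protein close to HNRNPU at 11:62712630-62727472, is joined with BSCL2, which encodes seipin. Its own transcripts stood at 198.1 CPM in SK-OV-3 and 166.2 CPM in COV504, against 83.5 and 105.2 CPM in IGROV-1 on PromethION, 68.0 and 82.8 CPM on MinION, 80.1 CPM in OVMANA, 76.0 CPM in OVKATE, 55.1 CPM in OVTOKO and 103.7 CPM in COV362. Both high lines were called on its own transcripts (log2 0.84 ± 0.19 SE, adjusted p = 0.0076 in SK-OV-3, and 0.74 ± 0.19 SE, adjusted p = 0.013 in COV504). On those transcripts it was lower in OVKATE (log2 -0.61 ± 0.21 SE, adjusted p = 0.039), where the joined identifier was not called, and in OVTOKO (log2 -0.70 ± 0.22 SE, adjusted p = 0.04). The share of HNRNPUL2-201 under the joined identifier was 73.1% in OVMANA, 48.8% in OVKATE, 76.9% in OVTOKO, 64.5% in SK-OV-3, 72.9% in COV362, 60.5% in COV504, 73.8% and 74.9% in IGROV-1 on PromethION, and 69.5% and 70.8% on MinION, and usage was called in OVKATE (adjusted p = 0.035).

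**Figure D3:**
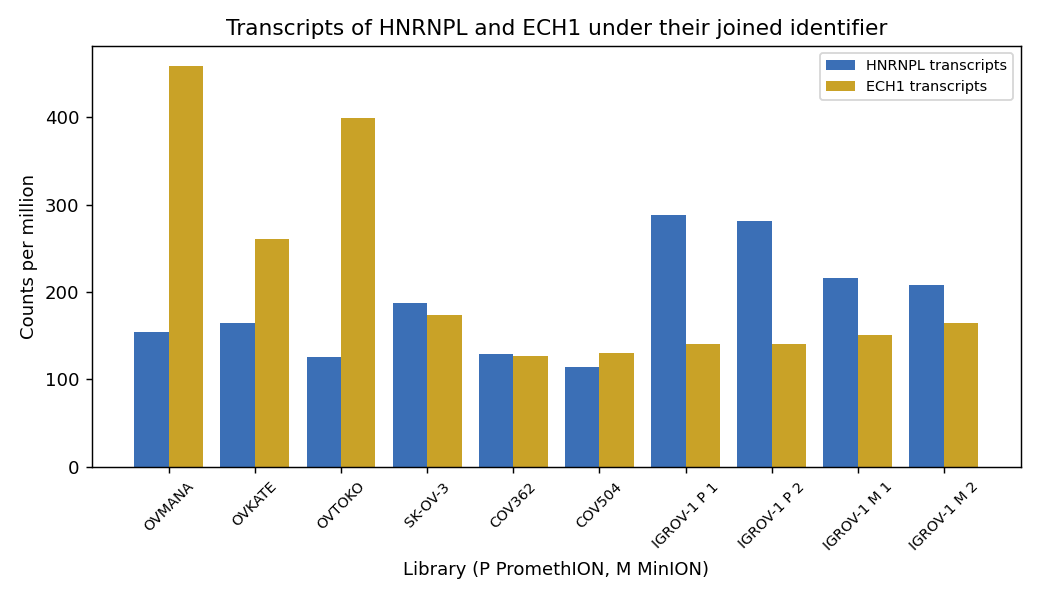
Level in CPM of HNRNPL transcripts (blue) and ECH1 transcripts (yellow) under their joined identifier in each library. HNRNPL transcripts are highest in the 4 IGROV-1 libraries, and ECH1 transcripts are highest in OVMANA and OVTOKO.

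A list of 64 other genes of the splicing pathway was read in the same fits, of which 63 were tested. It held SR kinases, nuclear importers, core splice-site factors, other regulators and factors of nonsense-mediated decay. COV504 had 13 of these genes higher than IGROV-1 and 15 lower, where 24% and 19.6% of all genes were called in those directions. COV362 had 12 higher and 17 lower (23.7% and 18.8% of all genes), and SK-OV-3 had 6 higher and 18 lower (22% and 19.8%). OVTOKO had 4 higher and 25 lower (18.2% and 15.9%), OVKATE had 13 higher and 23 lower (26.8% and 22.4%), and OVMANA had 8 higher and 14 lower (18.9% and 16.5%). The median log2 fold change of the list, in the same order of lines, was -0.24, -0.20, -0.25, -0.55, -0.19 and -0.18. Apart from SMG6, which had 0 counts in OVMANA, the largest differences were in regulators nearly silent in IGROV-1. ESRP1, the epithelial splicing regulator, had 0 counts in both IGROV-1 PromethION libraries, and was at least 135.6-fold higher in OVMANA (87.1 CPM), 130.9-fold in OVKATE (84.1 CPM) and 38.8-fold in COV504 (24.9 CPM), against 3 counts over those 2 libraries together. MBNL3, a muscleblind protein, also had 0 counts there, and was at least 28.0-fold higher in COV362, 13.1-fold in OVKATE and 9.5-fold in SK-OV-3. KHDRBS3, a STAR family regulator, had 1 count there, and its level was 203.0 times as high in COV362 (exact 95% counting interval 35.7 to 8091.3). CELF2, a CUG-binding regulator, had 1 count as well, and was 251.7 times as high in OVKATE (44.2 to 10032.4). SMG6, the endonuclease of nonsense-mediated decay, had 0 counts in OVMANA, at least 3.9-fold lower than the 6.21 CPM in IGROV-1. ESRP2, the paralog of ESRP1, was at 1.28 and 2.58 CPM in IGROV-1 and higher in OVMANA (25.1 CPM, log2 3.73 ± 0.51 SE, adjusted p = 0.00081) and OVKATE (25.7 CPM, log2 3.40 ± 0.51 SE, adjusted p = 0.00084). TNPO3, the importin that carries phosphorylated SR proteins into the nucleus, was chosen for its role after its values were seen. It was lower in all 6 lines, from -1.95 ± 0.22 (SE, adjusted p = 0.0003) in OVMANA to -0.92 ± 0.19 (SE, adjusted p = 0.0049) in COV362 on the log2 scale, and was also lower on MinION than on PromethION in IGROV-1 (log2 -0.88 ± 0.14 SE, adjusted p = 0.03). TNPO3 was not alone in this. PTBP1, TAF15, CLK2 and TNPO1 were also called lower in all 6 lines, and SRRM1 and TAF15 were also called lower on MinION.

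Between the instruments, the level of no member passed the threshold in IGROV-1 in the fit without a replicate block. Of 10041 genes, 0.817% were called, 0.11% higher on MinION and 0.707% lower, and of 35 members 0 were called in either direction by edgeR and 0 by DESeq2, while 9 had an unadjusted p under 0.05. The median log2 fold change was 0.01 for the members and 0.003 for all genes. The lowest adjusted p was 0.13, for HNRNPUL1 (99.5 and 108.7 CPM on PromethION, 72.0 and 78.8 CPM on MinION, log2 -0.51 ± 0.13 SE). These values are from fits without the replicate block, and the count of members called with it, given at the end, was higher.

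The protein variants of these genes are made by short in-frame exons and by splice sites within an exon. The 8 stretches below are wholly within coding sequence and a multiple of 3 long; HNRNPC, HNRNPM and HNRNPH3 were added after the annotation was read. Each is printed on the transcribed strand, 5′ to 3′, with capitals for the alternative stretch and lower case for 6 bases of exon on either side, from the GENCODE 29 transcripts. They lie at 7:26197831-26197866, minus (HNRNPA2B1), 14:21230958-21230996, minus (HNRNPC), 19:8465363-8465479, plus (HNRNPM), 10:68338643-68338687, plus (HNRNPH3), 4:82356537-82356683 and 4:82371528-82371584, minus (HNRNPD), 5:178210132-178210272, plus (HNRNPAB), and 2:38746144-38746179, minus (SRSF7).
HNRNPA2B1 36 nt exon: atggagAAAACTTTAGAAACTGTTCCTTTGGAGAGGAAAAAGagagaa
HNRNPC 39 nt segment: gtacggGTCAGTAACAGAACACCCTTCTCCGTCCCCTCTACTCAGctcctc
HNRNPM 117 nt segment: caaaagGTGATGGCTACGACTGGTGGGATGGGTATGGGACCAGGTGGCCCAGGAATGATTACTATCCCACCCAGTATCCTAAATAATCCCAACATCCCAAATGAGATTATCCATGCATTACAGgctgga
HNRNPH3 45 nt segment: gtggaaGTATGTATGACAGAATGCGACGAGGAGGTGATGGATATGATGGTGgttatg
HNRNPD 147 nt exon: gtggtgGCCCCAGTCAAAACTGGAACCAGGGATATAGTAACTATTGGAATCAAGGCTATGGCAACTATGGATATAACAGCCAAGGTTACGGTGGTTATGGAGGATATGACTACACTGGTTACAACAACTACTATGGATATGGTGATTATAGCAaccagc
HNRNPD 57 nt exon: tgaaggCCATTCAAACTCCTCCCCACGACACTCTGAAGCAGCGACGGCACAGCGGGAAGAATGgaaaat
HNRNPAB 141 nt exon: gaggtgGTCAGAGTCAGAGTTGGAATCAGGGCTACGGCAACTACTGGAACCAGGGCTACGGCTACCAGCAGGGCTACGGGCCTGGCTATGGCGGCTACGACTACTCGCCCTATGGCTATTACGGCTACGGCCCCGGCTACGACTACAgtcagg
SRSF7 36 nt exon: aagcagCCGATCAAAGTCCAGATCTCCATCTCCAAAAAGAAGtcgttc

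The inclusion of each stretch is the percent of a gene's informative counts, those in transcripts that span it, that carry it, and rests on how the quantification divided reads among transcripts. The 36 nt exon of HNRNPA2B1 is the one that makes hnRNP B1 instead of A2, and adds residues near the amino terminus. Its inclusion was 13.6% and 14.2% in IGROV-1 on PromethION, 12.04% and 11.2% on MinION, 14.4% in OVMANA, 22.1% in OVKATE, 14.4% in OVTOKO, 10.9% in SK-OV-3, 19.2% in COV362 and 28.8% in COV504. COV504 (95% Wilson interval 26.8 to 30.9, counting error only) and OVKATE stood above the rest. The transcripts counted as carrying the exon, HNRNPA2B1-201 and HNRNPA2B1-209, also end further downstream than HNRNPA2B1-202, which skips it. The values and calls for this gene therefore do not separate the exon from the transcript end. Transcript usage in these genes was tested with edgeR's differential splicing test over 4730 genes with at least 2 tested transcripts, with the gene's p by Simes' method. HNRNPA2B1 was called in COV504 (adjusted p = 0.0015), where HNRNPA2B1-201 held 27.6% of counts against 11.3% in IGROV-1 on PromethION, and in OVKATE (adjusted p = 0.033). The COV504 call was kept with 2 of the 4 IGROV-1 libraries left out in turn (adjusted p up to 0.082 over 9 alternatives), and the OVKATE call with none.

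HNRNPC carries a 39 nt segment, spliced in by a later 5' splice site, that makes hnRNP C2 instead of C1. It was in 24.3% and 23.4% of counts in IGROV-1 on PromethION, 25.5% and 25.4% on MinION, 36.9% in OVMANA, 34.1% in OVKATE, 20.2% in OVTOKO, 26.1% in SK-OV-3, 33.4% in COV362 and 47.2% in COV504. The COV504 share (Wilson interval 44.2 to 50.3) was the highest. Usage was called in COV504 (adjusted p = 0.023), where HNRNPC-211, the main C2 transcript, held 36.3% against 18.0% in IGROV-1 and HNRNPC-205, the main C1 transcript, 24.8% against 42.5%. The call was lost whichever IGROV-1 library was left out. The share of HNRNPC-211 was 27.6% in COV362, 29.1% in OVMANA, 22.7% in OVKATE, 19.2% in SK-OV-3 and 15.9% in OVTOKO, with 20.6% and 20.1% in IGROV-1 on MinION. HNRNPC also has 3 alternative exons that are not wholly coding or whose length is not a multiple of 3. Of these a 163 nt exon was included in 8.73% to 22.8% of counts, a 26 nt exon in 77.7% to 90.01%, and a 158 nt exon, covered by few transcripts, in 68.4% to 96.2%.

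Usage of HNRNPA1 was called in OVMANA (adjusted p = 0.043), OVKATE (adjusted p = 0.049) and COV362 (adjusted p = 0.044). The transcript with the lowest p in these calls is not described here. All 3 calls were lost whichever IGROV-1 library was left out, and over 9 alternatives the adjusted p reached up to 0.29.

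HNRNPM makes a long and a short form by a 117 nt segment between RNA recognition motifs. The segment was in 65.9% and 56.0% of counts in IGROV-1 on PromethION, 56.2% and 59.5% on MinION, 67.0% in OVMANA, 47.5% in OVKATE, 56.7% in OVTOKO, 51.0% in SK-OV-3, 36.4% in COV362 and 68.8% in COV504. The COV362 share (Wilson interval 31.8 to 41.3) lay below every other library, but HNRNPM usage was not called there (adjusted p = 0.14). For HNRNPH3 the 45 nt segment was in 86.7% and 74.3% of counts in IGROV-1 on PromethION, 76.8% and 81.5% on MinION, 75.0% in OVMANA, 75.7% in OVKATE, 89.3% in OVTOKO, 86.0% in SK-OV-3, 67.5% in COV362 and 74.9% in COV504. The IGROV-1 libraries spanned much of that range, and no line was called. HNRNPH3-201, which has the segment, also ends further downstream than HNRNPH3-202, which lacks it. The segment was not separated from the transcript end.

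HNRNPD makes its AUF1 protein variants by 2 exons. The 147 nt exon near the carboxyl end was included in 33.3% and 34.4% of counts in IGROV-1 on PromethION, 36.6% and 37.3% on MinION, and between 34.1% and 44.7% in the other lines, highest in COV362. The 57 nt exon was included in 82.8% to 92.6% of counts over the 10 libraries, lowest in COV362 and highest in SK-OV-3. The 141 nt exon of HNRNPAB, similar in position to the 147 nt exon of HNRNPD, was included in 77.0% and 78.6% in IGROV-1 on PromethION, 76.6% and 74.4% on MinION, and in 64.2% in OVKATE, 69.1% in COV504, 69.7% in SK-OV-3, 78.0% in OVMANA, 78.2% in OVTOKO and 80.8% in COV362. Neither gene was called in any line, with adjusted p from 0.52 to 1.0 for HNRNPD and from 0.12 to 1.0 for HNRNPAB.

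Among the SR genes, SRSF7 has a 36 nt exon that lengthens its arginine and serine tail. It was included in 90.8% and 93.3% of counts in IGROV-1 on PromethION, 92.2% and 90.8% on MinION, 88.9% in OVMANA, 81.2% in OVKATE, 84.9% in OVTOKO, 80.6% in SK-OV-3, 85.1% in COV362 and 84.6% in COV504, below the IGROV-1 libraries in all 6 lines. Usage was called in OVKATE (adjusted p = 0.048), where SRSF7-209, the transcript without the exon, held 18.8% against 7.93%, and the call was lost whichever IGROV-1 library was left out. The 301 nt exon of TRA2A is not wholly coding. TRA2A-211, which includes it, and TRA2A-212, which skips it, share 1 coding sequence of 181 amino acids. The exon was included in 5.90% and 12.8% in IGROV-1 on PromethION, 7.36% and 6.17% on MinION, and between 4.32% and 11.4% in the other lines. The difference between both IGROV-1 PromethION libraries was nearly as wide as the span of the other lines, so no order of the lines is read from it.

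**Figure D4:**
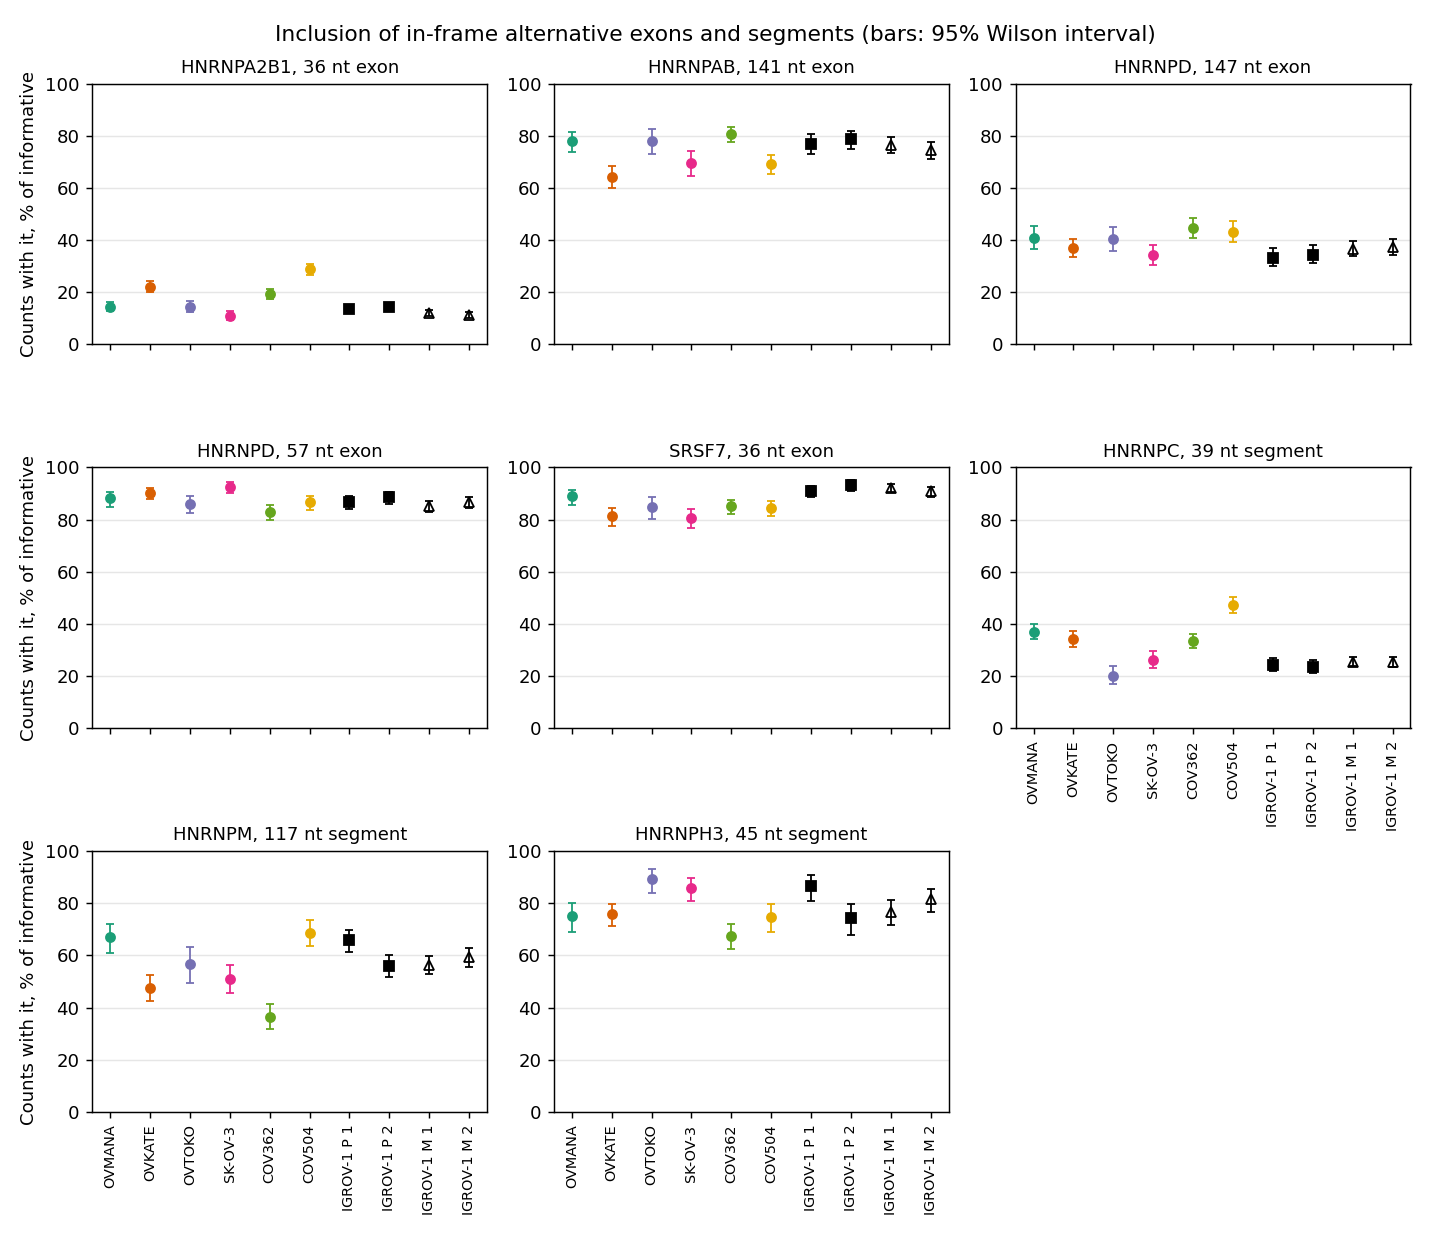
Percent of informative counts that carry each in-frame exon or segment, by library; points are libraries, bars 95% Wilson intervals for counting error. COV504 stands highest for HNRNPA2B1 and HNRNPC, COV362 lowest for HNRNPM, and the 4 IGROV-1 libraries highest for SRSF7.

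Usage over whole genes was called for 4 members of 25 tested in OVMANA, 6 in OVKATE, 1 in OVTOKO, 1 in SK-OV-3, 3 in COV362 and 5 in COV504, where 2.79%, 4.76%, 1.31%, 2.01%, 2.75% and 2.54% of all 4730 genes were called. They include HNRNPL in OVMANA, OVKATE and OVTOKO, where it was the only call, and HNRNPUL2 in OVKATE, whose joined identifiers set a member's transcripts against those of ECH1 or BSCL2. Leaving out 1 IGROV-1 library at a time reduced these counts, to 0 or 1 in OVMANA (0 without MinION replicate 2 or PromethION replicate 1), to 0 in OVKATE, OVTOKO and SK-OV-3, to 0 or 1 in COV362 (1 without MinION replicate 1 only), and to 1 or 2 in COV504 (1 without either PromethION library). Where the count was 0, between 1 and 10 members still had an unadjusted p under 0.05.

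HNRNPDL was called in 5 of the 6 lines, each time with a lower share of HNRNPDL-204, a transcript that keeps an intron of the 3' untranslated region and encodes the same 301 amino acids as HNRNPDL-206. HNRNPDL-204 held 27.4% and 25.1% of the gene's counts in IGROV-1 on PromethION, 29.5% and 24.2% on MinION, 9.12% in OVMANA, 12.1% in OVKATE, 19.4% in OVTOKO, 10.53% in SK-OV-3, 11.3% in COV362 and 5.96% in COV504. All 6 lines lay below the IGROV-1 libraries. The call was strongest in COV504 (adjusted p = 0.0001), where it held with any IGROV-1 library left out and under all 9 alternatives (adjusted p up to 0.017). The calls in OVMANA (adjusted p = 0.0055), SK-OV-3 (0.014), COV362 (0.015) and OVKATE (0.026) were kept with at most 1 of those 4 libraries left out. HNRNPDL-206 held between 46.6% in SK-OV-3 and 69.3% in COV504. In SK-OV-3 HNRNPDL-201, which encodes the long form of 420 amino acids, held 24.8% against 11.5% and 14.0% in IGROV-1 on PromethION.

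Among members with at least 50 counts in every library, HNRNPF had the widest range of a transcript share on PromethION. Its transcripts differ in the first exons and encode 1 protein of 415 amino acids. HNRNPF-203 held 63.1% and 59.2% of counts in IGROV-1 on PromethION, 49.0% and 47.4% on MinION, 73.4% in OVMANA, 34.9% in OVKATE, 50.2% in OVTOKO, 41.6% in SK-OV-3, 47.2% in COV362 and 24.2% in COV504. HNRNPF-207 held 23.1% in COV504, 21.3% in OVKATE and 1.43% in OVMANA, against 7.44% and 10.04% in IGROV-1 on PromethION. Usage was called in COV504 (adjusted p = 0.037) and OVMANA (adjusted p = 0.049), and neither call was kept with an IGROV-1 library left out.

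HNRNPU usage was called in COV362 (adjusted p = 0.011) and COV504 (adjusted p = 0.012), in opposite directions for the same transcript. HNRNPU-216, at 1:244853467-244860536, has an annotated start inside the gene and encodes 547 amino acids. It held 15.0% of counts in COV362 and 1.23% in COV504, against 5.69% and 5.35% in IGROV-1 on PromethION, 13.9% and 18.9% on MinION, 7.0% in OVMANA, 7.26% in OVKATE, 2.54% in OVTOKO and 2.46% in SK-OV-3. The COV362 share lay within the span of the IGROV-1 MinION libraries. Its call was kept with 1 of the 4 IGROV-1 libraries left out in turn, and the COV504 call with none. The main forms, HNRNPU-205 with 806 amino acids and HNRNPU-226 with 825, held between 57.4% and 71.1% and between 17.5% and 35.5% on PromethION.

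**Figure D5:**
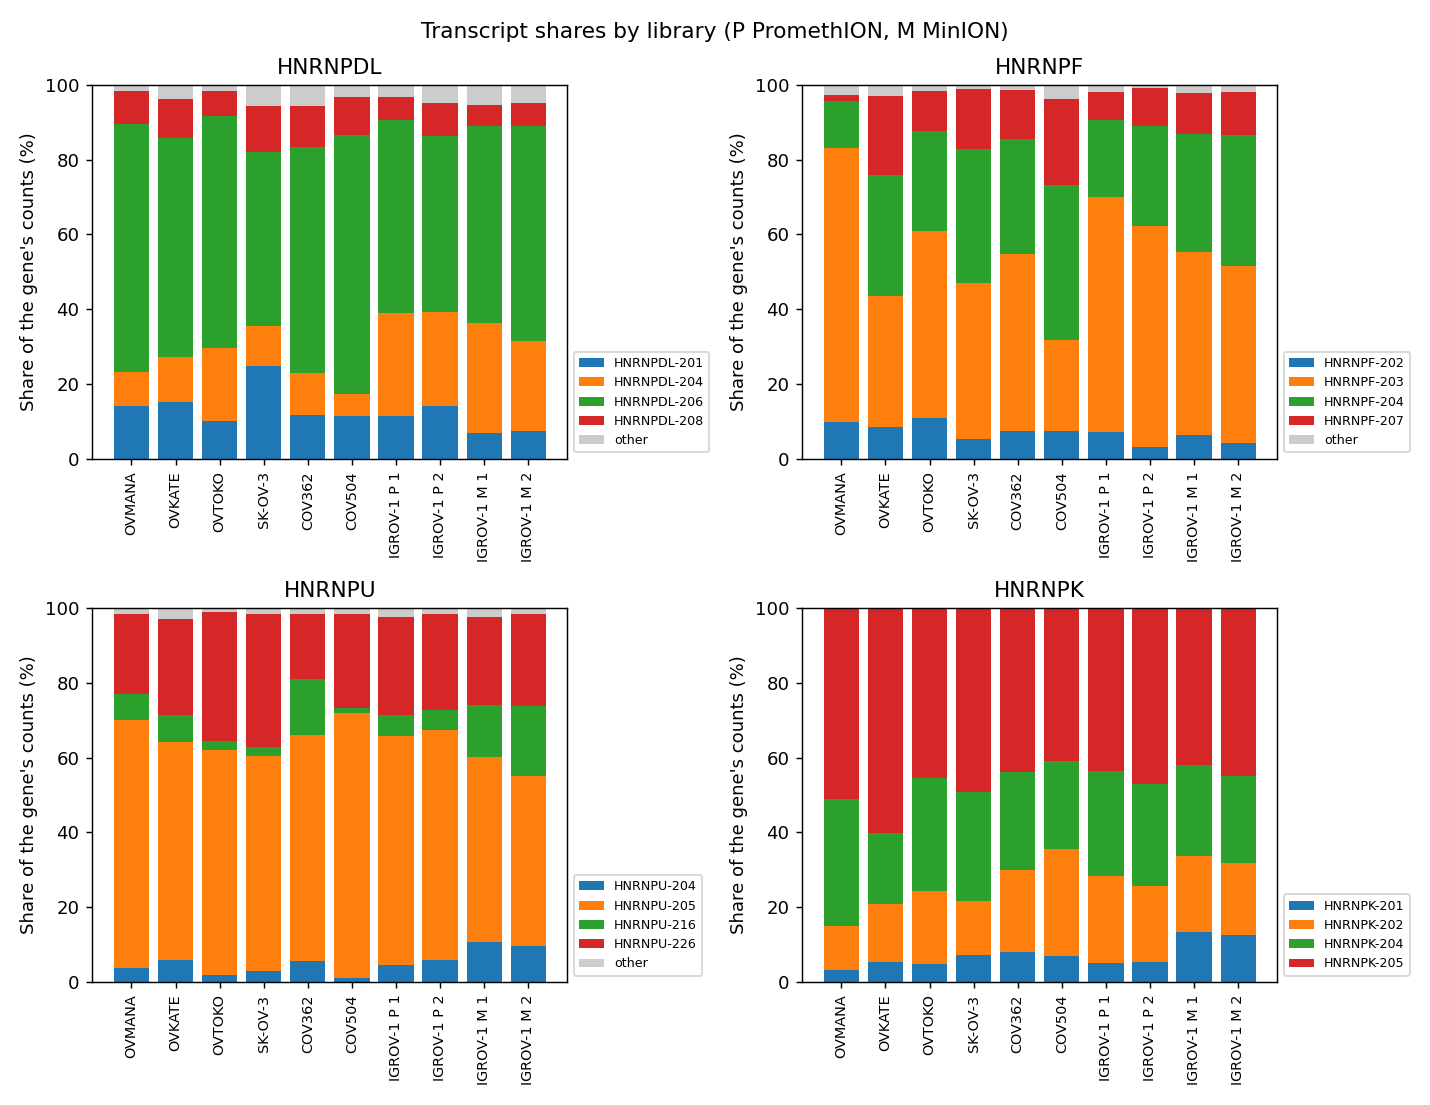
Share of each gene's counts assigned to its transcripts in the 10 libraries for HNRNPDL, HNRNPF, HNRNPU and HNRNPK; transcripts that never reach 5% are pooled as other. HNRNPDL-204 is widest in IGROV-1, HNRNPF-203 widest in OVMANA and narrowest in COV504, and HNRNPU-216 and HNRNPK-201 are wider in the IGROV-1 MinION than in the IGROV-1 PromethION libraries.

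Several other members varied in transcripts that were not called in any line. HNRNPR-203 held 41.7% and 27.3% in IGROV-1 on PromethION, 53.1% and 54.9% on MinION, 50.02% in OVMANA, 28.1% in OVKATE, 24.9% in OVTOKO, 36.6% in SK-OV-3, 56.4% in COV362 and 38.9% in COV504. HNRNPR has a 166 nt and a 169 nt version of 1 exon near its start, included in 70.4% to 88.6% and 66.9% to 82.8% of the counts that inform on each. Each version was set only against HNRNPR-210 and HNRNPR-212, which skip the exon, and counts of the other version were left out. Neither range is therefore the inclusion of the exon in either version, which is higher. SRSF5-217, which starts downstream of SRSF5-203, held 42.2% and 43.6% in IGROV-1 on PromethION, 54.0% and 61.3% on MinION, 34.3% in OVMANA, 33.7% in OVKATE, 20.2% in OVTOKO, 29.1% in SK-OV-3, 26.2% in COV362 and 40.5% in COV504, while all 3 main SRSF5 transcripts encode 272 amino acids. HNRNPK-205 held 43.7% and 47.2% in IGROV-1 on PromethION, 42.0% and 44.9% on MinION, 51.2% in OVMANA, 60.1% in OVKATE, 45.3% in OVTOKO, 49.1% in SK-OV-3, 43.7% in COV362 and 40.9% in COV504. The main HNRNPK transcripts encode 463 or 464 amino acids.

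SRSF2, SRSF10 and SRSF11 kept their main transcripts in every library. SRSF2-202, which removes an intron of the 3' untranslated region, held 54.3% and 51.0% in IGROV-1 on PromethION and between 60.7% and 69.4% in the other 8 libraries, and encodes the same 221 amino acids as SRSF2-203. SRSF10-204, the highest in each library, held between 34.5% and 48.7% and SRSF10-207 between 18.4% and 34.1%, and SRSF11-202, of 484 amino acids, between 63.0% and 73.5%. For SRSF3 and TRA2B nearly all counts fell on 1 transcript, at least 99.9% on SRSF3-202 and at least 97.0% on TRA2B-205. SRSF4, SRSF6 and SRSF9 have 1 transcript in the annotation, so their shares carry no information. Most counts of SRSF1 (95.7% to 98.4%) were assigned to SRSF1-205, whose last exon covers an intron that SRSF1-201 removes, and which encodes 201 amino acids; whether reads were divided correctly between these 2 was not tested. Poison exons, the alternative exons by which many SR genes send their own messenger RNA to decay, could be read only in part, because 150 of the 151 member transcripts in the annotation used are protein coding. The 1 transcript annotated to nonsense-mediated decay, a readthrough of HNRNPUL2 and BSCL2, took between 0.01% and 0.182% of member counts.

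Between the instruments in IGROV-1, usage was called for 5 of 25 members, where 5.91% of 2979 genes were called. HNRNPU-216 held 5.69% and 5.35% of counts on PromethION and 13.9% and 18.9% on MinION (gene adjusted p = 0.00017), and HNRNPU-204, which also starts inside the gene, 4.39% and 5.73% against 10.6% and 9.67%. HNRNPU-205, the main form, held 61.4% and 61.6% against 49.6% and 45.4%. HNRNPK-201, at 9:83968197-83978452, which starts downstream of the main HNRNPK transcripts, held 5.11% and 5.36% on PromethION and 13.3% and 12.5% on MinION (adjusted p = 0.00031). For both genes the libraries of the 2 instruments did not overlap. The HNRNPU call held without each library in turn, and the HNRNPK call in 3 of 4 such fits (adjusted p up to 0.059). HNRNPA1 was called (adjusted p = 0.0078), with HNRNPA1-204, a minor transcript and the one with the lowest p of those compared, at 0.34% and 0.32% on PromethION and 0.84% and 1.26% on MinION. HNRNPC was called (adjusted p = 0.027), with HNRNPC-201 at 11.7% and 11.1% on PromethION and 7.75% and 8.70% on MinION, and HNRNPC-223, which had the lower p, at 2.17% and 2.10% against 0.44% and 0.66%. HNRNPDL was called (adjusted p = 0.037), with HNRNPDL-206 at 51.6% and 47.1% against 52.7% and 57.5%, and HNRNPDL-201 at 11.5% and 14.0% against 6.87% and 7.31%. In each of the 3, the libraries of the 2 instruments did not overlap for the transcripts given. The transcripts of all 5 genes were picked for their change or p between these same libraries, so the lack of overlap adds no support. The share of all transcripts without overlap is not given. The count was 3 when MinION replicate 1 was left out, 2 when either MinION replicate 2 or PromethION replicate 2 was, and 1 when PromethION replicate 1 was. The line comparisons set PromethION libraries against PromethION libraries, and the MinION libraries enter the estimate of spread, the filter on low counts and the scaling.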

How the data were processed

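Total RNA of 10 libraries was read by nanopore sequencing. The authors deposited estimated counts and TPM values per transcript; TPM here equals the CPM of the library, the count scaled to a common total, checked on the files, and is not divided by length. Per the submitters' processing notes, GRCh38 and minimap2 2.24-r1122 were used; the quantification settings were not given in those sources. Transcripts were matched by identifier to GENCODE 29, which held all 151 member transcripts.

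Counts were summed per deposited gene identifier and rounded, which moved at most 0.0258% of a library's counts. Levels were tested with edgeR 4.0.16 (R 4.3.3; TMM, filterByExpr, glmQLFit, glmQLFTest) and transcript usage with diffSpliceDGE, both over all genes with Benjamini-Hochberg adjustment at 0.05 and tested on simulated data. DESeq2 1.42.0 was an alternative. Groups came from the labels. Inclusion was the count of transcripts with an exon over that plus the count of transcripts that skip it; exons needed 50 informative counts in every library and a mean inclusion of 5% to 95%. Wilson intervals and the floor of 3 counts cover counting error only, and reads carry no molecular identifiers. Tables were made in Python 3.11.15 with pandas 2.3.3 and scipy 1.17.1.

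The inclusion of 1 exon that met these limits is not reported here. Members and gene lists were chosen with earlier results of these data known. TNPO3 and the pathway genes given beside it were named after their values were seen. Per-library values are given for members called for usage between instruments, the 3 called members per line with the largest change at a mean of at least 5 CPM, the 10 members with the widest range of a transcript's share on PromethION among those with at least 50 counts in every library, and textbook isoform pairs; of other pathway genes, up to 6 are named by size of change.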

Additional observations from a re-analysis of the deposited data

How the results depend on the processing

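The counts of members called for level were smallest under DESeq2's own test, with 1 in OVMANA, 4 in OVKATE, 5 in OVTOKO, 7 in SK-OV-3, 5 in COV362 and 4 in COV504. Of all genes, that test called 1442, 2116, 1314, 1672, 1587 and 1771 in the same order of lines, against 4443 to 6405 in edgeR. In OVMANA, 8 members were called with the 8 PromethION libraries only and 7 with no filter on low counts. Leaving out 1 IGROV-1 library gave 7 to 8 members in OVMANA, 8 to 11 in OVKATE, 10 to 14 in OVTOKO, 12 to 15 in SK-OV-3, 10 to 13 in COV362 and 12 to 15 in COV504. For usage, leaving out 1 gave 0 to 1 in OVMANA and in COV362, 0 in OVKATE, OVTOKO and SK-OV-3, 1 to 2 in COV504, and 1 to 3 between the instruments. With the 8 PromethION libraries only, usage was called for 1 member in OVMANA, 3 in COV504 and 0 in OVKATE, SK-OV-3 and COV362. A gene-level F test gave 10 in OVKATE, 3 in SK-OV-3, 6 in COV362 and 10 between the instruments. With no filter there were 2 in OVMANA, 1 in OVKATE and 3 between the instruments, and with a mean of at least 10 CPM there were 2 in SK-OV-3. The cause of these changes was not tested. The share of all genes called is not given for fits leaving out libraries, changing the filter or using the F test. HNRNPL in OVMANA turned to -0.82 on the log2 scale when the joined identifiers were split, which removes the ECH1 counts. The only member transcript not annotated as protein coding sits under a joined identifier, so its share is 0.0% without the joined members by construction. HNRNPL in OVTOKO, not called by the joined identifier, went from 0.38 to -1.10. Called levels and usage of single members were followed under the alternatives, each pair of a result and an alternative counted once. Of these pairs, 543 kept their direction and side of the threshold, and 172 kept the direction but lost the call. The pairs that kept the call came from 70 results, and those that lost it from 47 results. In 1 pair, HNRNPL in OVMANA, the direction reversed. Members not called were not among the results followed.

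The labels give the IGROV-1 libraries of both instruments the numbers 1 and 2, and nothing says that a number marks a shared culture. Deviations of same-numbered libraries correlated across 7894 genes (Pearson 0.49; genes are not independent replicates). KRT18 was at 262.7 and 243.6 CPM in the libraries numbered 1 and at 1041 and 1080 CPM in those numbered 2. With the replicate block, 17 members were called for level between the instruments, against 0 without it, and 6 for usage, against 5. The share of all genes called with the block is not given here, so nothing particular to the members is read from these counts.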
